A study of Mus musculus with 14 samples.

Results

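Of the 160108 H3K4me1 sites that the deposited table places on chromosomes 1 to 19 and X, 3452 (2.16%, 95% Wilson interval 2.09 to 2.23%) had their centre outside every annotated gene and more than 100 kb from the nearest transcription start site (TSS). These far intergenic sites, called far sites below, were chosen by position alone, against the genes of all biotypes in GENCODE release M21, and make up 5.97% of the 57867 sites that lie outside genes. The sites come from H3K4me1 ChIP-seq in NG3 cells, 1 clone of immortalized mouse embryonic fibroblasts (iMEF). Its endogenous Ash2l gene is knocked out, and the cells depend on a lentiviral human ASH2L carrying the FKBP12F36V tag (FKBP-HA2-ASH2L), which the compound dTAG-13 sends to degradation. All groups share this background. They were cells without dTAG and cells given dTAG for 0.5, 2, 4, 8 or 16 h, with 2 replicates each (12 H3K4me1 libraries), and 1 input library each for the control and for 16 h of dTAG. The table analysed here is 1 set of peaks over all samples, without a count or signal for any library, so that from it a site cannot be assigned to a time point and no comparison over replicates can be made. The authors' lists of sites changed at each time point were not used here. Intervals given here cover the counting of sites only and treat sites as independent, although neighbouring sites are not. The table does not give the depth of each library, for which the study's methods state only a minimum.

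H3K4me1 is placed by methyltransferase complexes of the KMT2 family, of which ASH2L is a core subunit, and is known as a mark of enhancers and of the flanks of active promoters. Gene deserts are long stretches without protein-coding genes, and those beside developmental regulators such as Sox9 are known to hold enhancers that act over great distances. A site in such a place is a mark on chromatin and does not tell which gene, if any, it serves. In what follows, a desert is the stretch between neighbouring protein-coding genes, its flanking genes are those genes, and far sequence is the sequenced part of a desert that meets the same rule as the sites, outside every annotated gene and over 100 kb from every TSS. Immunoglobulin and T cell receptor gene segments were counted among the protein-coding genes throughout.

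The central 200 bases of 6 far sites are shown because they stand for the 5 deserts with most far sites and for the site farthest from a TSS. The desert between Gm10800 and B230118H07Rik held 36 far sites, as many as that between Cdh11 and Cdh5, which was ranked ahead for its higher density. In each of the deserts the site is the widest one that holds the AP-1 heptamer TGACTCA, or its reverse complement TGAGTCA, in these bases. AP-1 is the dimer of Fos and Jun proteins, abundant in fibroblasts. The sequences are read 5′ to 3′ from the plus strand of GRCm38.p6, the assembly of the mm10 build used for the sites, and each line gives the flanking genes and the position. Capitals mark the heptamer.
Rasgrp1 to Thbs1, chr2:117666903-117667102: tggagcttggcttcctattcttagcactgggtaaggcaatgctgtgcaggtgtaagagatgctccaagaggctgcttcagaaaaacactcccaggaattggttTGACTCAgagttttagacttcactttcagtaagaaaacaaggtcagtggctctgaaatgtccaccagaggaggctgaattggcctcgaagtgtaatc
Pard3 to Nrp1, chr8:127800034-127800233: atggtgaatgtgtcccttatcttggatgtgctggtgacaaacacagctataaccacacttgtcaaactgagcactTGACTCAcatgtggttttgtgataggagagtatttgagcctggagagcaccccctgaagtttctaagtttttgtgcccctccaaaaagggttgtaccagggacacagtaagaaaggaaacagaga
Kcnj2 to Sox9, chr11:111427932-111428131: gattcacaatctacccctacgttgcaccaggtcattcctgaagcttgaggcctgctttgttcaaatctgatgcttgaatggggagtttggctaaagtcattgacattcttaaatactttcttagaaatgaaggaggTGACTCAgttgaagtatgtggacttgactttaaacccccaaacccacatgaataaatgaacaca
Fat4 to Intu, chr3:40409018-40409217: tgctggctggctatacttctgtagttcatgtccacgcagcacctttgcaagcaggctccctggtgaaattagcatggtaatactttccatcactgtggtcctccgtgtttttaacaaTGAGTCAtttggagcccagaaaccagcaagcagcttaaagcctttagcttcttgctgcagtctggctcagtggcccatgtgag
Cdh11 to Cdh5, chr8:103970497-103970696: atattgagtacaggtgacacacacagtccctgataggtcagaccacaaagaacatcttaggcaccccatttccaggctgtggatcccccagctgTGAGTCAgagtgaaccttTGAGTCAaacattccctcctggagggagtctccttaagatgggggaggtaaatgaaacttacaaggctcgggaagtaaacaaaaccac
Farthest site, Cobl to Pom121l12, chr11:13553498-13553697: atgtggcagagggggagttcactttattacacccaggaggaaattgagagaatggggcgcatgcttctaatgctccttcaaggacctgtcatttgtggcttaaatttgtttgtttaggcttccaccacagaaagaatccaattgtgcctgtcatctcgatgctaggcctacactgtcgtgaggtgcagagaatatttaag

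The site between Rasgrp1 and Thbs1 was 1907 bp wide and had its heptamer at base 104 of the 200 shown, close to the middle of the site. The site between Cdh11 and Cdh5 held 2 heptamers, the first at base 95. The farthest site was only 208 bp wide, at chr11:13553495-13553702, and had no heptamer in its central bases. In 5 of the 6 windows no base was repeat-masked, and in the window between Pard3 and Nrp1 17 bases were.

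Far sites were rarer than their sequence. Far sequence made up 178 Mb, 6.96% of the sequenced bases of these chromosomes. Had all sites been placed uniformly on their own chromosomes, 11064 (6.91%) would have met the rule, so that the observed number was 0.312 of the expected one. It was below the expected number on all 20 chromosomes. The density was 19.4 far sites per Mb of far sequence, against 43.2 intergenic sites per Mb at 3 to 100 kb from a TSS and 62.6 sites of any kind per Mb of all sequenced bases.

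Among the autosomes the density ranged from 8.47 far sites per Mb on chromosome 6 (76 sites in 8.98 Mb) to 35.5 on chromosome 13 (195 sites in 5.49 Mb), with a median of 22.5. Chromosome X stood apart with 2.71 per Mb, 32 sites in 11.8 Mb of far sequence. On that chromosome intergenic sites were sparse nearer to genes too, with 6.76 per Mb at 30 to 100 kb, and 32 of the expected 185 far sites were found, a ratio of 0.173. Chromosome 6 had a lower ratio still, 0.137, and the highest ratio was 0.496 on chromosome 13.

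Density fell with distance from class to class, and the fall began short of 100 kb. Intergenic sequence at 10 to 30 kb from a TSS held 48.0 sites per Mb, and at 30 to 100 kb it held 34.0. At 100 to 200 kb there were 2914 sites (21.8 per Mb), at 200 to 300 kb 440 (13.8 per Mb), and beyond 300 kb 98 (7.81 per Mb). All 20 chromosomes had a lower density at 100 to 200 kb than at 30 to 100 kb, and 19 had a lower density at 200 to 300 kb than at 100 to 200 kb. The GC content of the intergenic sequence fell over the same classes, from 40.0% at 30 to 100 kb to 38.7% at 100 to 200 kb and 37.5% beyond 300 kb, and its part in the decline was not tested. Within single deserts the decline was weaker. Of 137 deserts with a far site and at least 50 kb of far sequence on either side of the 200 kb mark, 88 had the lower density beyond 200 kb and 49 the higher one, and the pooled densities were 17.2 per Mb at 100 to 200 kb and 14.5 beyond. Only deserts with a far site were counted, and a desert with few can hold none in its smaller part. The split of 88 to 49 was not set against uniform placement, so it does not by itself measure a decline.

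**Figure D1:**
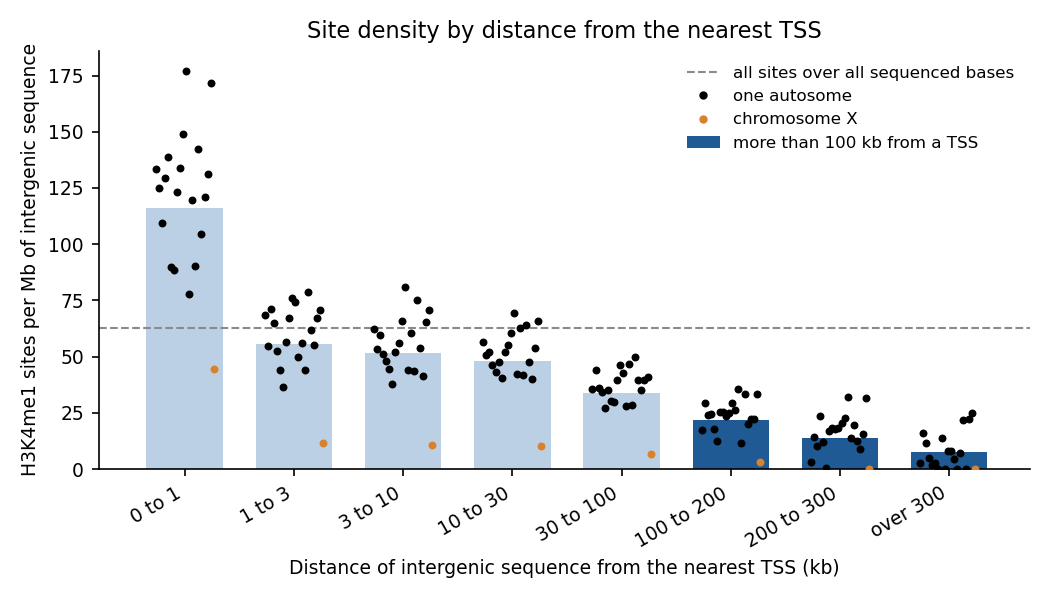
H3K4me1 sites per Mb of intergenic sequence (vertical axis) in classes of distance from the nearest TSS in kb (horizontal axis). Bars pool all chromosomes, black points are the autosomes, orange points are chromosome X, dark bars are the far sites, and the dashed line is the density of all sites over all sequenced bases, 62.6 per Mb. The 3 dark bars stand at 21.8, 13.8 and 7.81 per Mb, and chromosome X is lowest in each class, with no site beyond 200 kb and, beyond 300 kb, some autosomes at 0 as well.

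The median far site lay 138222 bp from the nearest TSS of any gene (quartiles 114657 and 174272 bp) and 263720 bp from the nearest protein-coding TSS. Of the far sites 538 (15.6%) were over 200 kb away, 24 over 400 kb and 5 over 500 kb. Of these 5, the farthest (555932 bp) and 2 more lay between Cobl, an actin nucleator gene, and Pom121l12. The other two lay between Ankrd7 and Kcnd2, a potassium channel gene (524865 bp), and between Rgs18 and Brinp3 (522628 bp). All 5 were narrow, from 200 to 290 bp, where 200 bp is the smallest width in the table. Distance from a TSS is not distance from a gene, since long genes end far from their start. The median far site was 122468 bp from the nearest gene body, while 63 lay within 10 kb of one and the closest was 6 bp away.

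At the threshold, the 3 closest members had their centres 100004, 100039 and 100057 bp from a TSS and were 915, 1704 and 632 bp wide. The 3 sites just short of it were 99962, 99938 and 99921 bp away and were 255, 310 and 267 bp wide. In the 10 kb beyond the threshold there were 618 far sites, and in the 10 kb before it 762 intergenic sites.

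The rule depends on the annotation. RefSeq genes of the same assembly covered 284 far sites (8.23%, interval 7.36 to 9.19%) and 4.92% of far sequence. When sites had to lie outside RefSeq genes too, and over 100 kb from either end of each, 1583 far sites (45.9%) and 64.4% of far sequence were left, and the density in this sequence was 13.8 per Mb. Counting both ends also removes far sites near the 3′ ends of genes that both annotations hold.

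Far sequence was spread over 837 deserts, of which 497 held at least 1 far site (59.4%, interval 56.0 to 62.7%). Uniform placement of the same far sites over the far sequence of each chromosome would have reached 581 deserts. The sites were concentrated: 117 deserts with 10 or more held 2136 far sites (61.9%) on 25.0% of far sequence, and 81 deserts (9.68% of all) held 50% of the sites on 18.6% of it. In 101 deserts there was a single far site. The 340 deserts without one held 24.6% of far sequence, and were smaller, with a median of 57.8 kb of far sequence against 152 kb in those with a far site. Since the deserts were ranked by these counts, the shares are a description.

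**Figure D2:**
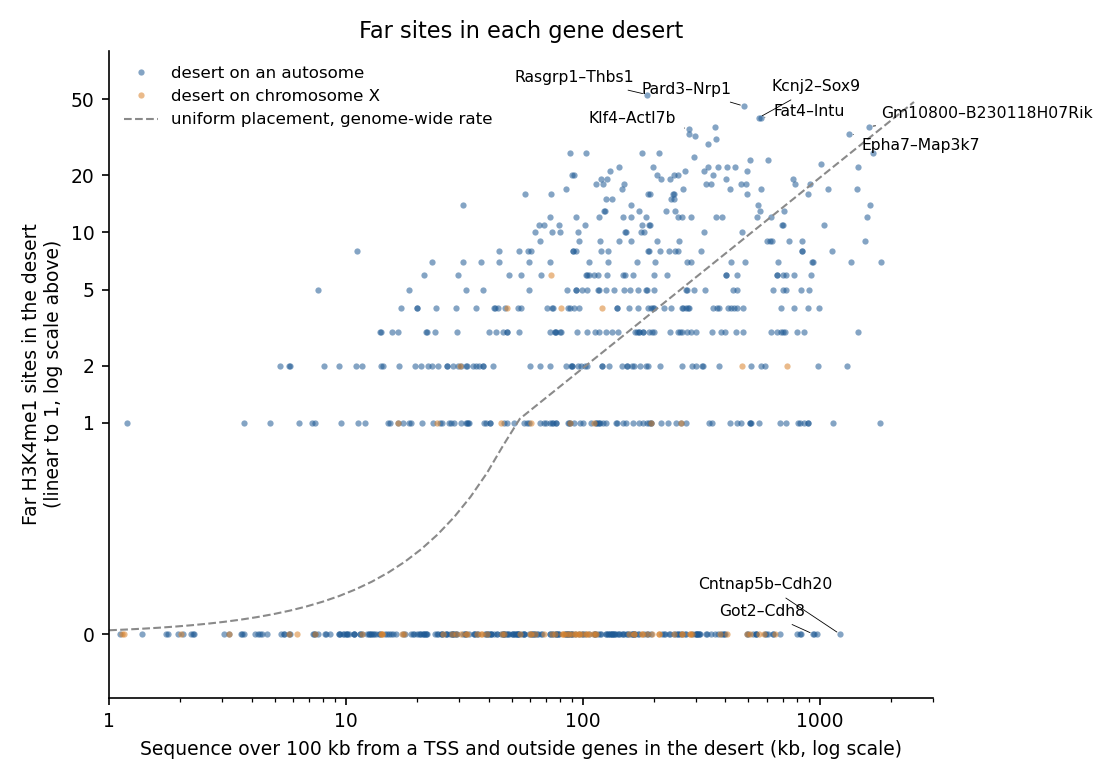
Far sites (vertical axis, linear to 1 and logarithmic above) against kb of far sequence (horizontal axis, logarithmic) in each of the 837 deserts, blue on autosomes and orange on chromosome X. The dashed line is the number expected at the overall density of 19.4 per Mb. Rasgrp1 to Thbs1, with 53 sites on 186 kb, lies far above the line, and deserts with up to 1222 kb of far sequence lie at 0.

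The 10 deserts with most far sites held 384 of them (11.1%) on 3.34% of far sequence. The leading one lay on chromosome 2 between Rasgrp1, an activator of Ras in lymphocytes, and Thbs1, which encodes the matrix glycoprotein thrombospondin 1. It held 53 far sites on 186 kb of far sequence, 285 per Mb, where uniform placement over the chromosome's far sequence would give 4.52. On chromosome 8, 46 far sites (95.7 per Mb) lay between Pard3, a cell polarity scaffold, and Nrp1, a co-receptor for semaphorins and VEGF. These 46 were spread over 480.5 kb of unbroken far sequence.

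The desert between the potassium channel gene Kcnj2 and Sox9, the regulator of cartilage formation, held 40 far sites on 552 kb, and that between the atypical cadherin gene Fat4 and Intu, a gene of cilium formation, held 40 on 563 kb. Both were at about the same density, 72.5 and 71.0 per Mb. Between Cdh11, the cadherin of mesenchymal cells, and Cdh5, the cadherin of endothelium, there were 36 far sites on 363 kb. The position of far sites within a desert follows in part from the rule, which sets where its far sequence lies.

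**Figure D3:**
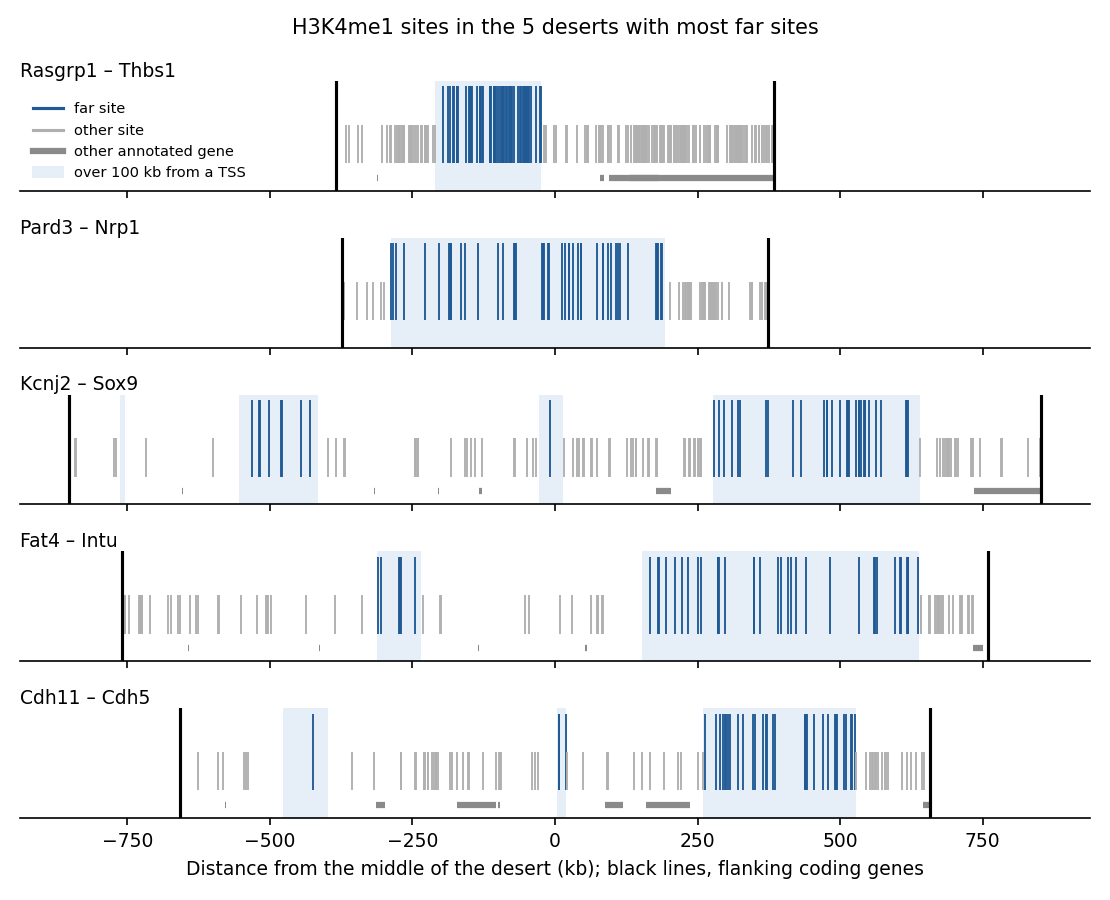
H3K4me1 sites in the 5 deserts with most far sites, by distance in kb from the middle of each desert. A tie for the last place, at 36 far sites, was broken by density. Tall blue lines are far sites, short grey lines are other sites, grey bars are annotated genes that are not protein-coding, blue shading is far sequence, and black lines are the flanking protein-coding genes. The 53 far sites between Rasgrp1 and Thbs1 stand in 1 block of 186 kb, and those between Kcnj2 and Sox9 stand in several blocks.

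The other leading deserts included the flanks of Klf4, a factor used in reprogramming of fibroblasts (35 far sites, 125 per Mb, up to Actl7b), and of Gdf6, a ligand of the BMP family (33, 117.7 per Mb, up to 2610301B20Rik). Slc35b3 and Ofcc1 enclosed 32 far sites at 107.7 per Mb. A further pair of deserts led by size rather than density. Gm10800 to B230118H07Rik, with 36 far sites on 1614 kb, and Epha7, an ephrin receptor, to Map3k7, the kinase TAK1, with 33 on 1331 kb, had 0.918 and 1.04 times the number expected on their chromosomes. Among deserts with at least 500 kb of far sequence, the densest after those of Sox9 and Fat4 were Camk1g to Plxna2, a semaphorin receptor gene (24 far sites, 47.2 per Mb), Slc4a3 to Epha4, another ephrin receptor gene (24, 39.7 per Mb), and Celf2 to Gata3, a gene of a zinc finger transcription factor (17, 30.1 per Mb).

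Large deserts without any far site were found as well. Of the 103 deserts with at least 500 kb of far sequence, 21 had none, 4 of them on chromosome X. The largest lay on chromosome 1 between Cntnap5b, a neuronal adhesion gene of the contactin-associated family, and Cdh20, a cadherin gene, with 1222 kb of far sequence where 16.5 far sites would be expected at the density of that chromosome. The next were 4931408C20Rik to Gm597 (977 kb), Got2 to the cadherin gene Cdh8 (945 kb), 1700015G11Rik to Luzp2 (938 kb) and Lingo2 to 1700009N14Rik (831 kb). The first 3 of these 5 deserts held no intergenic site at 3 to 100 kb from a TSS either, and the others held 5 each.

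What flanked a desert varied with the number of far sites in it. Flanking protein-coding genes were counted once for each desert they flank, so a gene that lies between deserts counts more than once. There were 1447 distinct genes, and the intervals treat the counts as independent. Where the desert held no far site, 396 of 678 (58.4%, interval 54.7 to 62.1%) had an H3K4me1 site within 1 kb of a TSS. Where it held 10 or more, 204 of 234 had one (87.2%, interval 82.3 to 90.9%). Deserts with 1 to 4 far sites stood at 78.8% and those with 5 to 9 at 82.1%. Over all 22222 protein-coding genes the share was 67.2%. Without chromosome X, which holds 73 of the 340 deserts at 0, the share beside deserts without a far site was 65.8% (interval 61.7 to 69.7%). The density of intergenic sites at 3 to 100 kb from a TSS in the same deserts rose in the same order, 12.5, 25.4, 31.7 and 49.0 per Mb. The GC content of far sequence did not follow this order, at 39.1, 38.1, 37.8 and 39.0%, while its repeat-masked share was 43.1, 42.7, 42.3 and 36.0%, lowest in deserts with 10 or more far sites. The part of repeats in the counts was not tested.

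The flanking genes were also read against lists of genes. Mesenchymal transcription factors flanked 42 deserts with far sequence, of which 30 held a far site (71.4%, interval 56.4 to 82.8%), beside 59.4% of all 837. The median density over these deserts was 45.8 far sites per Mb, beside 7.87 over all deserts, and 12 of the 42 (28.6%) held 10 or more, beside 13.98% of all deserts. The pooled density was 48.7 per Mb. Besides Sox9 and Klf4, the members with most far sites were Zeb2, Sox6 and Osr1. Zeb2, a repressor of epithelial genes, led by size, with 26 far sites on 1673 kb up to Acvr2a, 15.5 per Mb and 0.640 times the number expected on its chromosome. The others were Sox6, a partner of Sox9 in cartilage (22 on 198.6 kb from Insc), and Osr1, a factor of limb and kidney mesenchyme (22 on 141 kb from Ttc32). Runx1, a Runt family factor, had 20 far sites on 91.3 kb up to Setd4, a density of 219 per Mb. These far sites did not always lie nearer to the listed gene. On the Osr1 side of its desert's middle lay 0 of 22, and on the Acvr2a side of the Zeb2 desert 19 of 26. All 22 lay on the Sox6 side of its desert, and 31 of 40 on the Sox9 side. In the Klf4 desert 9 of 35 lay on the Actl7b side, and in the Runx1 desert 8 of 20 on the Setd4 side.

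Genes of secreted signals flanked 33 deserts, 25 of them with a far site (75.8%, interval 59.0 to 87.2%) and with a median of 40.3 per Mb and a pooled density of 48.7 per Mb. Of the 33, 6 (18.2%) held 10 or more. Thbs1 and Gdf6 led this list. The desert beside Thbs1, the gene of a matrix glycoprotein, held 53 of the list's 235 far sites on 186 kb of its 4.82 Mb. After Gdf6 came Fgf9, a fibroblast growth factor with 26 far sites on 178 kb up to 1700129C05Rik. The far sites beside Fgf9 had a median width of 1108 bp, above the third quartile of all far sites. Bmp2, a BMP ligand, was next with 19 on 769.9 kb up to Hao1, and these reached 476376 bp from a TSS. On the Hao1 side of this desert's middle lay 11 of the 19, and on the Thbs1 side of its desert 0 of 53. In the Gdf6 desert 0 of 33 lay on the 2610301B20Rik side, and in the Fgf9 desert 2 of 26 on the 1700129C05Rik side.

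Other developmental transcription factors flanked 47 deserts, of which 23 held a far site (48.9%, interval 35.3 to 62.8%). Their median was 0 per Mb and their pooled density 18.3 per Mb, beside 19.4 over all deserts, and 7 of the 47 (14.9%) held 10 or more. Sox11 led with 26 far sites on 209 kb up to Dcdc2c. Genes of neuronal adhesion and synapses flanked 140 deserts with 55.8 Mb of far sequence, more than any other list. Of these 79 held a far site (56.4%, interval 48.2 to 64.4%), 12 (8.57%) held 10 or more, the median was 2.95 far sites per Mb, and the pooled density was 7.59 per Mb. Olfactory and vomeronasal receptor genes flanked only 5, of which Olfr1505 to Tle4 held 18 far sites and 3 held none. For each of the 5 lists the interval of the share with a far site included the value over all deserts, and the densities carry no test. The lists were chosen with earlier results of these data known.

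Far sites stood close to each other. Of the 3452, 2407 (69.7%, interval 68.2 to 71.2%) had another far site within 10 kb. Uniform placement over the far sequence of their chromosome would give at most 35.3%. The values for uniform placement take the sequence of a class on a chromosome as 1 unbroken stretch. That sequence lies in pieces, so the values are upper limits. By how much they are too high can differ between the classes. At 2 kb the shares were 38.4% and at most 8.43%, a ratio of at least 4.56. The intergenic sites at 3 to 100 kb had another of their class within 10 kb in 77.9% of cases, against at most 60.3% under uniform placement. Within 2 kb they had one in 38.6%. At 1 kb the share was 15.6% (interval 14.5 to 16.9%) for far sites and 13.1% (12.8 to 13.4%) for those at 3 to 100 kb. Distances were taken between centres, so that width limits how close neighbours can stand. Far sites were narrower, with a median of 417 bp against 551 bp, and the part of width in this difference was not tested. With sites within 1 kb merged, the share of far sites with another within 10 kb was 55.8%, against at most 29.6% under uniform placement. Within 100 kb, 92.0% of far sites had a far neighbour. The upper limit under uniform placement, 97.3%, lies above this share, so at this reach it allows no comparison. Counting sites of any kind, 272 far sites (7.88%) had none within 50 kb, against 1.90% of those at 3 to 100 kb. The loneliest was 249 bp wide, between Adcyap1 and Mettl4 on chromosome 17, with the next site 1211470 bp away.

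**Figure D4:**
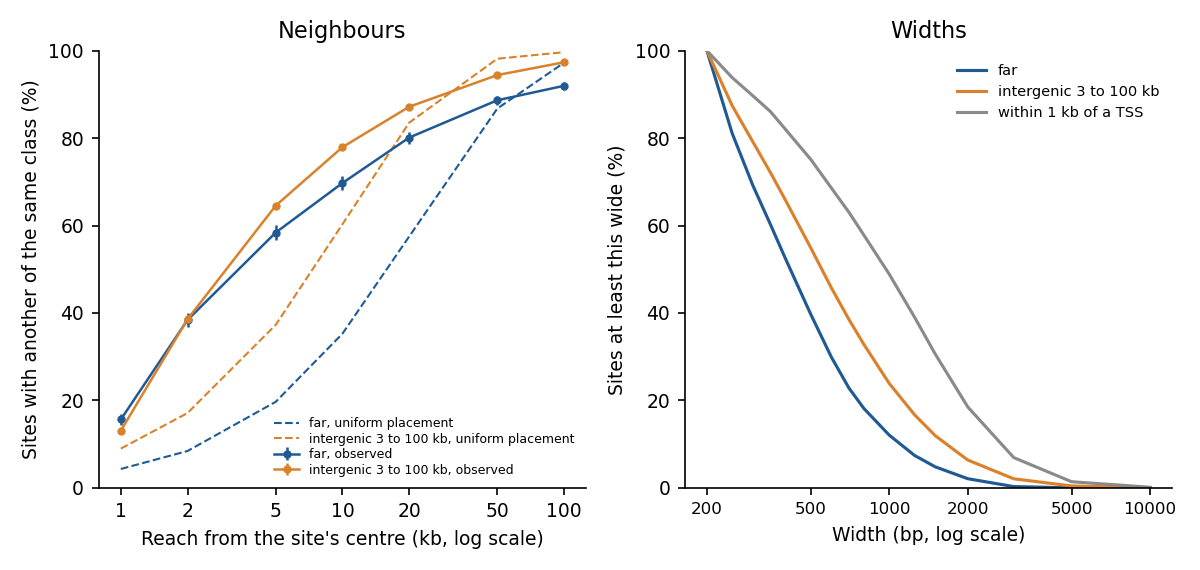
Left, percent of sites with another site of the same class within a reach given in kb (logarithmic axis), for far sites (blue) and intergenic sites at 3 to 100 kb (orange). Points and lines are observed shares with 95% Wilson intervals, and dashed lines are upper limits under uniform placement. Right, percent of sites at least as wide as the value in bp on the logarithmic axis, with sites within 1 kb of a TSS in grey. At 10 kb far sites stand at 69.7% against at most 35.3%, and their width curve is the lowest, with 12.1% at 1000 bp or more.

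Far sites less than 10 kb apart were joined into 1736 runs. Of these 1045 were single sites (30.3% of far sites), 134 runs had 5 or more members and held 1040 far sites (30.1%), and 26 had 10 or more. The largest run, of 34 far sites over 90339 bp, lay in the desert between Rasgrp1 and Thbs1. It was 270.1 kb from Rasgrp1 and 408 kb from Thbs1, with a median step of 1922 bp from centre to centre. The sites covered 18.2% of this stretch and were from 200 to 1907 bp wide. The second run held 26 far sites over 79447 bp between Adamts6, a secreted metalloprotease gene, and Cwc27, a spliceosome gene. It began 8.66 kb from the end of Adamts6, so that these sites were far from a TSS and close to a gene body. The third held 18 far sites over 61503 bp between Npvf, a neuropeptide gene, and Nfe2l3, a bZIP factor gene, 414 and 303 kb from them. The run in the Fgf9 desert, 365 kb from that gene, was the most covered of the 5 largest, with 17 sites on 45.2% of 47923 bp.

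The median far site was 417 bp wide (quartiles 272 and 665 bp), against 551 bp (329 and 970 bp) for intergenic sites at 3 to 100 kb, a difference of -134 bp. The median was lower for far sites on 19 of the 20 chromosomes. Sites of 1000 bp or more made up 12.1% of far sites (interval 11.0 to 13.2%), 23.9% of those at 3 to 100 kb and 48.9% of those within 1 kb of a TSS, and no far site reached 5000 bp. The median width went on falling beyond the threshold, from 427 bp at 100 to 200 kb to 375.5 bp at 200 to 300 kb and 322 bp beyond 300 kb. Far sites in runs had a median of 439 bp and single ones 372 bp.

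Within deserts the difference was smaller. Intergenic sites at 3 to 100 kb that shared a desert with far sites had a median of 453 bp (10233 sites), 36 bp above that of the far sites. In the 211 deserts with at least 5 sites of each class, far sites had the lower median in 111 and the higher one in 100. The widest far sites were 4658 bp (Disc1 to Sipa1l2), 4639 bp (Mctp2 to Rgma), 4483 bp (Chd7, a chromatin remodeller gene, to Clvs1), 4407 bp (Cdh11 to Cdh5) and 4027 bp (Bbs9 to Bmper, a gene of a BMP-binding protein). All 5 lay between 115663 and 192297 bp from a TSS.

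The sequence of far sites differed from far sequence pooled over all deserts in ways the rule did not use. Their GC content was 46.7%, against 38.4% in far sequence without a site, and 48.2% in sites at 3 to 100 kb. Repeat-masked bases made up 19.4% of far sites and 41.1% of all far sequence, a difference of -21.7 percentage points with the same sign on all 20 chromosomes, and 18.7% of sites at 3 to 100 kb. Reads from repeats are harder to place, and the part of this in the difference was not tested. The ratio of observed to expected CpG was 0.172 in far sites, 0.148 in far sequence without a site and 0.209 in sites at 3 to 100 kb. All intergenic sequence at 3 to 100 kb had a ratio of 0.171, a GC content of 41.0% and 40.4% of its bases repeat-masked. These values carry no test.

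The AP-1 heptamer, searched as TGACTCA on both strands, was found in the central 200 bp of 415 of 3452 far sites (12.02%, interval 11.0 to 13.1%). In windows of the same length 5 kb to either side it was found in 215 of 6904 (3.11%), a difference of 8.91 percentage points (95% Newcombe interval 7.78 to 10.1). In all 876761 windows of 200 bp that tile the far sequence outside sites, the share was 2.62%. The centre was higher than the flanks on all 20 chromosomes, with shares at the centre from 6.49 to 18.6%. Far sites did not differ detectably from those at 3 to 100 kb, where 11.9% of centres held the heptamer (difference 0.128 points, interval -0.958 to 1.29). By width, it was found in 10.9% of far sites under 300 bp (interval 9.17 to 12.9%), in 13.6% of those from 500 bp to under 1000 bp (11.6 to 15.9%) and in 10.6% of those of 1000 bp or more (7.97 to 13.9%), so that the intervals overlapped. The 5 sequences shown above were chosen for the heptamer and the farthest site was not.

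Shorter words were more frequent at the centres too. GGAATG, a word of TEAD factors, was in 17.6% of the centres and 11.4% of the flanks (difference 6.20 points, interval 4.74 to 7.70), and TGTGGT, a word of RUNX factors, in 18.2 and 12.9% (5.30 points, interval 3.81 to 6.83). GGAAGT, a word of ETS factors, differed by 3.71 points (interval 2.32 to 5.14) and CATCTG, a word of bHLH factors such as TWIST, by 2.78 points (interval 1.27 to 4.33). CCCTC, a short part of the CTCF motif, was in 40.4% of the centres and 28.4% of the flanks (11.98 points, interval 10.0 to 13.9). CCCTC is rich in G and C, and the centres held more G and C than far sequence outside sites. The part of base composition in the differences of all these words was not tested. Each word was also more frequent at the centres than the flanks of sites at 3 to 100 kb. There the shares were 16.3 and 11.1% for GGAATG, and 17.7 and 14.9% for TGTGGT. They were 14.4 and 11.8% for GGAAGT, 17.8 and 15.5% for CATCTG, and 44.4 and 35.2% for CCCTC. In the tiled far sequence outside sites, the shares were 11.0% for GGAATG, 12.01% for TGTGGT, 10.5% for GGAAGT, 14.3% for CATCTG and 24.9% for CCCTC. All words were searched on both strands, none contains another, and a match of letters is not a bound factor.

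**Figure D5:**
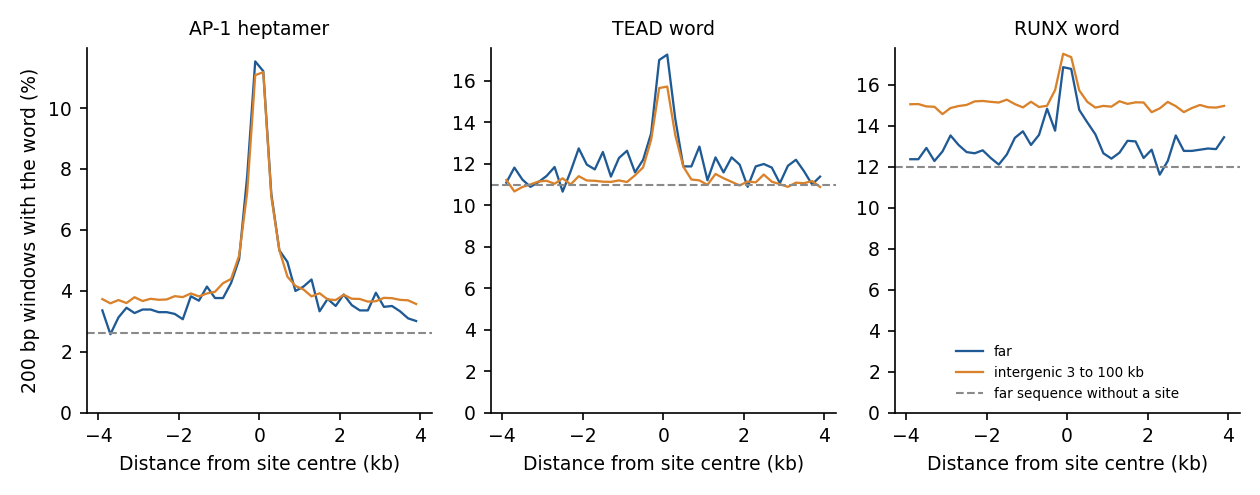
Percent of 200 bp windows that hold the AP-1 heptamer, the TEAD word or the RUNX word (vertical axes, from 0) by distance in kb from the centre of the site, for far sites (blue) and intergenic sites at 3 to 100 kb (orange). The dashed line is the share in far sequence outside sites, 2.62%, 11.0% and 12.01%. Each word peaks at the centre of the far sites, most steeply the AP-1 heptamer.

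Tested enhancers were few at these distances. Among 620 enhancers of the VISTA collection, which are tested in transgenic mouse embryos, that RefSeq places on these chromosomes, 11 lay in far sequence, and 5 of the 11 overlapped an H3K4me1 site (45.5%, interval 21.3 to 72.0%). Placed anywhere in far sequence of the same chromosome, stretches of these lengths would touch a site in 4.35% of positions. This value does not take into account how dense the sites are in the deserts that hold the elements. Over all 620 the share was 57.7%. Element mm1046, between Slc4a3 and Epha4 and active in limb and face, overlapped 2 far sites, and mm636, beside Sox9 towards Slc39a11 and active in the same tissues, overlapped 1 far site of 2718 bp. The other three were mm554 between Fat4 and Intu, active in brain or neural tube, and mm1296 and mm1696 between Bbs9 and Bmper. A further pair of limb elements between Slc4a3 and Epha4, mm1036 and mm1042, and mm634 between Kcnj2 and Sox9 overlapped none. Nor did mm613 between Plcl1 and Hsfy2, mm34 between Igfbp7 and Adgrl3, or mm1385 between Sall1 and Tox3.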

How the data were processed

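H3K4me1 ChIP-seq was made from NG3 cells in 6 conditions with 2 replicates each, with 2 inputs (14 samples). According to the study's methods and the submitters' processing notes, the authors used Trim Galore for trimming, BWA and the mm10 build for alignment, samtools for filtering, Picard for the merging of replicates, and Macs in its broad mode to find peaks. Versions and thresholds are not given in the sources used here. The values of the deposited table used here are the start and end in bases of each site, in 1 set over all samples, and the table holds no other measurement. Bases are counted from 1 in the text, and starts from 0 in the deposited table. How reads, libraries and thresholds entered each site, and thus its width, cannot be recovered.

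Sites were set against GRCm38.p6 and against 53843 genes and 130588 distinct TSSs of GENCODE M21, in Python 3.11.15 with numpy 2.4.6 and matplotlib 3.10.9. Release M25, which the study names, was not used here. VISTA elements and RefSeq genes came from the RefSeq annotation of that assembly. Expected values for uniform placement were computed from the number of sites and the sequenced bases of each chromosome, without random draws. Those for neighbours are upper limits and not exact, since they take the sequence of a class on a chromosome as 1 unbroken stretch. Promoters were 1 kb to either side of a TSS. Shares have 95% Wilson and differences of shares 95% Newcombe intervals. The functions were tested on simulated data with known answers, and the neighbour formula only on 1 unbroken stretch. The members, gene lists and rules were chosen with earlier results of these data known. Named deserts were the 10 with most far sites, the 5 densest with at least 500 kb of far sequence and the 5 largest without a far site, beside the 5 farthest and 5 widest sites, the 3 largest runs, and the leading deserts of each list. The run in the Fgf9 desert, the loneliest site and the enhancers were chosen after their values were seen. Alternatives changed the distance, the annotation, the point of the site, the minimum width, merging, assembly gaps, the desert, the reach and the windows. Changes between time points, for which the authors used DESeq2, and their lists of changed sites were not analysed here.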

Additional observations from a re-analysis of the deposited data

Results flagged for a closer look

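The table holds 36 H3K4me1 sites on scaffolds outside the chromosomes. They belong to no comparison here, since distance to a gene was measured by chromosome, and there are no control samples in the table to set them against. Their number is given as a value.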

How the results depend on the processing

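The number of far sites, 3452, followed the rule: it was 10098 beyond 50 kb, 538 beyond 200 kb, 21264 with protein-coding genes and their transcripts only, 9423 without pseudogenes, TEC and small RNA genes, 1371 among sites of at least 500 bp, and 1583 with RefSeq genes and both their ends counted as well, an alternative chosen after seeing the data. The share of sites that were far stayed below the share of bases under all 8 changes of the rule, the RefSeq one aside. The share of deserts with a far site was 47.4% with deserts between genes of any biotype, 72.4% of those with at least 100 kb of far sequence, 43.2% with sites of at least 500 bp, and 48.7% beyond 200 kb. The 10 leading deserts held 10.0% of far sites with deserts between genes of any biotype and 13.6% with sites of at least 500 bp. The difference in median width was -150 bp among sites of at least 500 bp, -212 bp after merging sites within 1 kb, and -36 bp against sites in deserts with far sites. The causes of these differences were not tested, beyond what each rule itself changes. Neighbours within the reach, the AP-1 heptamer and repeats kept their direction and, where an interval was set, their side of it, in all 12 alternatives. No paired analysis was possible because the sites in the table used are positions over all libraries together. Therefore leaving out a replicate and the test of changed sites per time point were not run, and the table does not say in which condition a far site was marked. Far sites were defined with GENCODE M21. The depth of each library, which limits the detection of narrow sites, is not in the table.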
